A study of Mus musculus with 16 samples.

Results

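The 9 genes described here mark compartments of the hair follicle, and their expression was followed across sorted mouse skin cells. They are 3 markers of the bulge (Cd34, Lgr5 and Cd200) and 6 markers of the upper follicle (Lgr6, Lrig1, Plet1, Gata6, Cst6 and Prdm1). The members were taken by gene name, with the brightest probe of each gene by its mean over the arrays. All 9 passed the filter on dim probes, among 31571 genes tested of 34650 gene names on the array. The study asked how hair follicle stem cells (HFSC) divide in regeneration and aging, and it profiled HFSC and interfollicular epidermis (IFE) on 16 one-colour arrays, 1 array for each of 16 groups.

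The gate for HFSC took cells high in CD34 and in ITGA6, an integrin of basal cells, and negative for Sca1. The gate for IFE took cells high in ITGA6 and Sca1. Each of 6 HFSC conditions gave 2 arrays, named tHFSC and aHFSC by the labels without an explanation of the letters. Plucking 3 days before collection is given for the aHFSC of young control and young Col17a1 cKO mice, and not for the other aHFSC. The young conditions, at 12 weeks, are control (WT, C57BL/6), Col17a1 cKO, aPKC cKO and the hCOL17A1 transgene. The aged conditions, at 25 to 26 months, are WT (C57BL/6) and hCOL17A1. Control and both cKO received RU486 (2.5 mg for 5 days at 8 weeks). The knockouts carry flox/flox alleles with K15crePR, an RU486-activated Cre under a keratin 15 promoter. The labels name no promoter for the hCOL17A1 transgene and do not say whether mice were pooled. IFE came from young WT, young hCOL17A1, aged WT and aged hCOL17A1 mice without a stated RU486 treatment.

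The bulge is the part of the resting follicle that holds the CD34-positive stem cells that regrow the hair. Above it lie the isthmus, the junctional zone at the sebaceous duct and the infundibulum, the funnel that opens to the skin surface. Each holds keratinocytes with their own markers, and the IFE is the epidermis between follicles. Levels below are the log2 processed signal relative to the array's 75th percentile, so 0 is that percentile and a difference of 1 is a doubling. They are compared between arrays and never between genes, because probes differ in brightness. Differences are from a limma fit of all 16 arrays, with the standard error (SE), and adjusted p-values are Benjamini-Hochberg values over all 31571 genes, called under 0.05.

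Facts of the whole series bear on these values. The 8 young HFSC arrays share slide 1, and the 4 aged HFSC and 4 IFE arrays share slide 2. In HFSC the effects of age and of slide therefore cannot be told apart. Comparisons of young HFSC with IFE cross slides, and those of aged HFSC do not. The share of probes well above background was lowest on the aged hCOL17A1 aHFSC array (59.2%) and at most 79.8%. The young hCOL17A1 IFE array stood apart, with a Pearson r of 0.915 to 0.924 against the other IFE arrays, which had 0.969 to 0.974 with each other. The young control tHFSC file is incomplete, and its Lgr5 and Gata6 values come from the deposited value table, without a background flag. Among the sort genes, Ly6a, which encodes Sca1, ran from 3.27 to 4.22 in IFE and from -4.87 to 1.02 in HFSC. Itga6 differed by -0.85 ± 0.15 in tHFSC against IFE (adjusted p = 0.0117, limma).

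The 3 bulge markers were far higher in HFSC than in IFE, and none of the 6 upper follicle markers differed past the threshold. In tHFSC against IFE, 3 of 9 members passed in the higher direction, where 2.1% of all genes did (6.33% in either direction). In aHFSC against IFE the same 3 members passed, where 1.62% of all genes did (4.25% in either direction). The 3 did not overlap between all 6 tHFSC and all 4 IFE arrays, as 10% of genes did not. Cd34, a gate of the HFSC sort, is among the 3 in these counts and in the medians. Lgr5 and Cd200, which were not gates, differed from IFE by 8.57 and 4.53 in tHFSC and by 8.67 and 3.74 in aHFSC. The median difference of the bulge markers was 8.57 in tHFSC and 8.02 (Cd34 itself) in aHFSC, beside -0.04 and -0.14 over all genes. That of the upper follicle markers was 0.19 and 0.24. The plot of the members' values by cell shows this split.

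**Figure D1:**
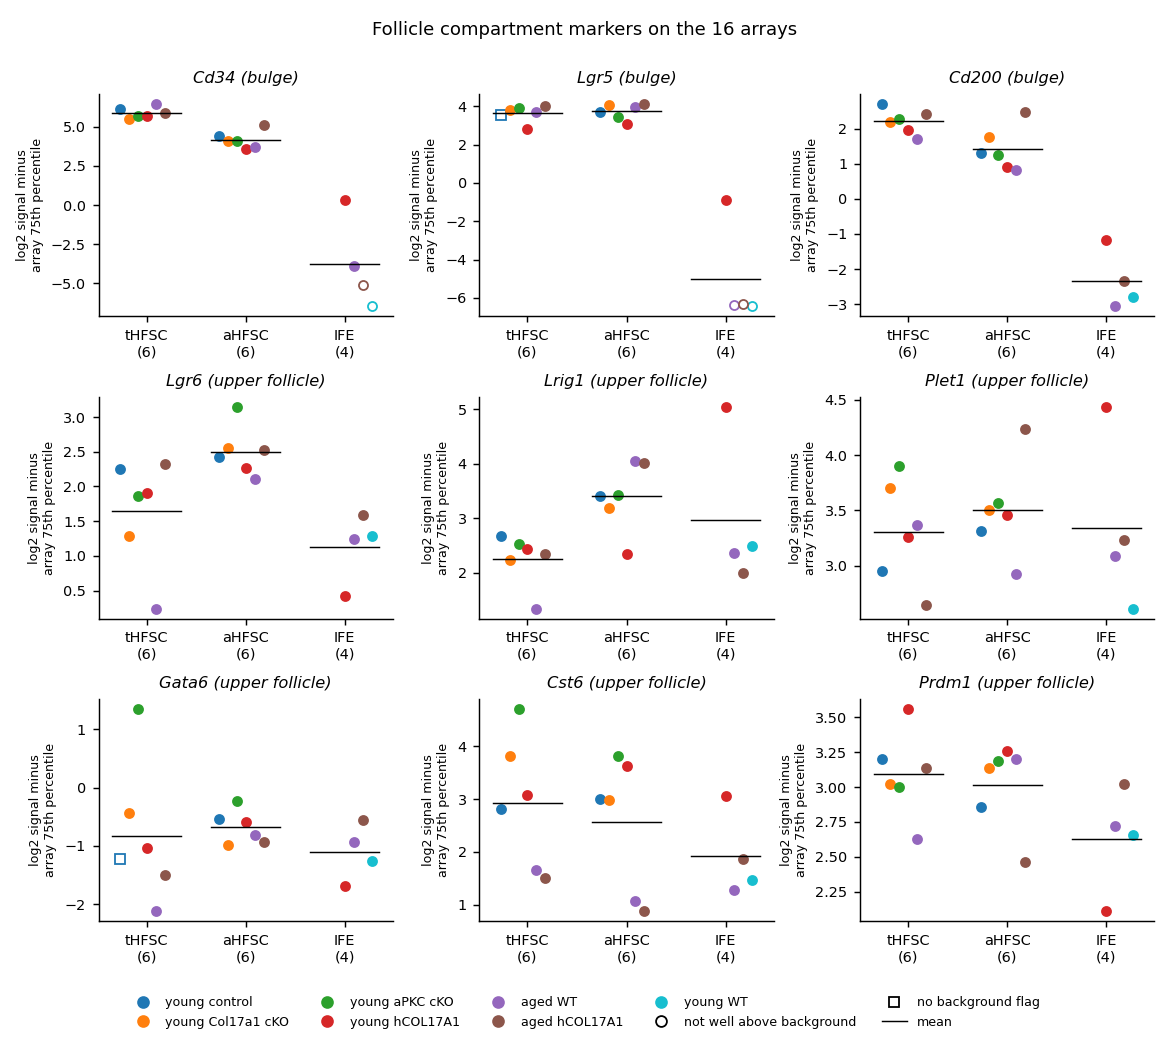
Log2 signal minus the array's 75th percentile (y axis) of the 9 members in 6 tHFSC, 6 aHFSC and 4 IFE arrays (x axis); each point is 1 array coloured by condition, bars are means, open circles are not well above background and open squares have no background flag. Cd34, Lgr5 and Cd200 do not overlap between HFSC and IFE, while Plet1, Gata6 and Prdm1 overlap between the 3 kinds of cell.

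Cd34 encodes a sialomucin of the cell surface and was itself a gate of the sort, so its difference between HFSC and IFE describes the sort and is no finding. Its level ran from 5.48 to 6.43 in tHFSC (median 5.75, n = 6) and from 3.54 to 5.10 in aHFSC (median 4.08, n = 6). In IFE it was -6.45 in young WT, -5.09 in aged hCOL17A1, -3.87 in aged WT and 0.31 in young hCOL17A1. The last 2 of these were well above background. The fitted difference was 9.73 ± 0.96 in tHFSC against IFE (adjusted p = 0.00103) and 8.02 ± 0.96 in aHFSC against IFE (adjusted p = 0.00288). Without the young hCOL17A1 IFE array these became 11.72 and 10.02. The second Cd34 probe, well above background on all 16 arrays, gave 7.58 ± 0.38 and 5.73 ± 0.38.

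Lgr5 encodes a receptor for R-spondins, secreted proteins that raise Wnt signalling, and marks the lower bulge and hair germ. In tHFSC it was 3.52 in young control, 3.78 in Col17a1 cKO, 3.92 in aPKC cKO, 2.79 in young hCOL17A1, 3.72 in aged WT and 4.01 in aged hCOL17A1. In aHFSC the same conditions gave 3.70, 4.09, 3.43, 3.07, 3.96 and 4.11. On this probe the HFSC arrays therefore lay within a narrow band, with both young hCOL17A1 arrays lowest. The dimmer second probe did not share this, with HFSC from -5.5 in aged hCOL17A1 tHFSC to -0.61 in young hCOL17A1 aHFSC. In IFE Lgr5 was -6.44 in young WT, -6.39 in aged WT and -6.30 in aged hCOL17A1, none well above background, and -0.92 in young hCOL17A1. The difference from IFE was 8.57 ± 0.65 in tHFSC (adjusted p = 0.000245) and 8.67 ± 0.65 in aHFSC (adjusted p = 0.000284), partly measured against background. The second Lgr5 probe did not rise well above background in any of the 4 IFE groups, and against the lowest signal well above background there, tHFSC were at least 3.45-fold and aHFSC at least 7.89-fold higher on the means of the 4 matched arrays. Of those tHFSC arrays, aged hCOL17A1 was not well above background on this probe either.

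Cd200 encodes a surface glycoprotein that restrains immune cells and is a second surface marker of the bulge. It was well above background on all 16 arrays, from 1.72 to 2.70 in tHFSC (median 2.23), from 0.81 to 2.49 in aHFSC (median 1.28) and from -3.06 to -1.18 in IFE (median -2.57). The lowest HFSC array lay above the highest IFE array. The difference was 4.53 ± 0.28 in tHFSC against IFE (adjusted p = 8.94e-05) and 3.74 ± 0.28 in aHFSC against IFE (adjusted p = 0.00024). Like Cd34 and Lgr5, Cd200 was highest among IFE on the young hCOL17A1 array. Without that array the differences were 4.76 and 3.96.

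**Figure D2:**
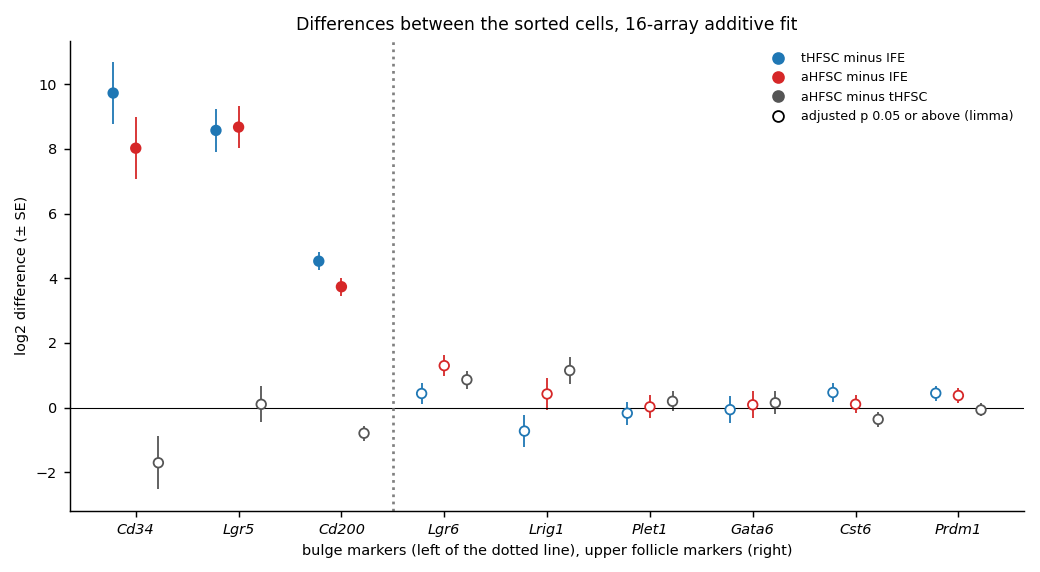
Fitted log2 differences with their SE (y axis) for the 9 members (x axis) in tHFSC minus IFE, aHFSC minus IFE and aHFSC minus tHFSC; filled points passed an adjusted p of 0.05 in the 16-array limma fit and open points did not. The 3 bulge markers lie between 3.74 and 9.73 above IFE, and the upper follicle markers lie between -0.73 and 1.30.

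Across the 16 arrays the 3 bulge markers ran together, with Pearson r of 0.96 to 0.97. This is a description of 2 separate clusters, HFSC and IFE, and not of a relation within them. Within the 12 HFSC arrays Cd34 and Cd200 had r = 0.79, Cd34 and Lgr5 r = 0.04, and Lgr5 and Cd200 r = 0.27. The genes most like each member over the 16 arrays, among 18019 candidates, were Dkk3, Fgf1 and Postn for Cd34 (r 0.974 to 0.972). For Lgr5 they were Tbx1, Irx1 and Ank (0.991 to 0.977), and for Cd200 P2rx7, Sox9 and Timp2 (0.985 to 0.971).

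Promoter windows of Cd34 and Cd200 are shown because these bulge markers were high together in HFSC. RefSeq (GRCm38.p6) windows were matched for 6 of the 9 members, not for Lgr5, and here cover the 250 bases before the gene's start. Cd34 is at chr1:194938571-194938820 on the plus strand and Cd200 at chr16:45409054-45409303 on the minus strand. Capitals mark matches, on either strand, to the letters searched for 7 families of transcription factors. SOX factors, among them the bulge factor SOX9, were searched as ACAAT. Factors of the NFAT family, among them the bulge factor NFATC1, were searched as GGAAA. The family of LHX2, the LIM homeobox factors, was searched with the letters TAATTA. The TCF/LEF factors, which carry Wnt signals to the genome, were searched as CTTTGA. For the RUNX family, which includes RUNX1 of the bulge, the letters were TGTGGT. For the FOX family, which includes FOXC1 of the bulge, the letters were TAAACA. For the GATA family, which includes the member Gata6, the letters were AGATAA.
Cd34: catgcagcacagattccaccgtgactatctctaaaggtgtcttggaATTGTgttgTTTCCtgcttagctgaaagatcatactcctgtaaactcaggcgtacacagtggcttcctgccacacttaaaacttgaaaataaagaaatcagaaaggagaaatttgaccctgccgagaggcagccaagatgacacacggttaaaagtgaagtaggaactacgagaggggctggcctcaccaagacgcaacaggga
Cd200: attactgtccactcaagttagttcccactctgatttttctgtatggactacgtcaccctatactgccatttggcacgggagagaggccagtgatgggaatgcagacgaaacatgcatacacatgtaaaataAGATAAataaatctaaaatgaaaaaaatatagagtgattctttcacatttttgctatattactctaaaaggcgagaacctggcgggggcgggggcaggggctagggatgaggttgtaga
The Cd34 window held 1 SOX and 1 NFAT match, and no match overlapped another. The window of Lgr6, an upper follicle marker, also held 1 of each. SOX letters occur in 27.7% and NFAT letters in 55.6% of 32851 windows of this length. The Cd200 window held 1 GATA match, which 9.99% of windows hold. No searched motif was in both windows.

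Other bulge genes moved with these 3 markers. Of 14 tested genes of a bulge list without the members, 12 passed as higher in tHFSC than in IFE, where 2.1% of all genes did. In aHFSC against IFE 12 passed too, where 1.62% of all genes did. The list's medians were 4.44 and 3.82. This list and those below were chosen with earlier results of these data known. Such counts therefore describe the data and are not an independent test. Of this list, Tcf7l1 and Wif1 passed in both comparisons, but 0 of 4 IFE arrays read either gene clearly above background. Their differences are thus measured against background in IFE, and they are named for that reason. Tbx1, a T-box factor of the bulge, was higher in tHFSC by 9.18 ± 0.39 (adjusted p = 1.39e-05). Lhx2, a LIM homeobox factor that keeps bulge cells quiescent, was higher by 7.48 ± 0.17 (adjusted p = 6.13e-07), and Sox9, a factor needed to set up the stem cells, by 4.67 ± 0.17 (adjusted p = 9.81e-06). The other tested genes were Krt15, the bulge keratin, and Npnt, an integrin ligand. Krt15 differed by -0.02 ± 0.12 in tHFSC and -0.42 ± 0.12 in aHFSC, and Npnt by 1.59 ± 0.68 and 2.53 ± 0.68. These 2 are named after their values were seen.

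Neighbouring compartments gave fewer calls. Of 7 genes of the inner bulge and companion layer, Krt6a and Fgf18 were higher in tHFSC than in IFE (5.5 ± 0.62 and 5.29 ± 0.80), and Krt16 was lower (-2.78 ± 0.62). Of 7 tested hair germ and matrix genes, Hoxc13, a hair keratin regulator, was higher (3.26 ± 0.41) and Cux1 lower (-3.25 ± 0.64). In aHFSC, Krt6a (5.16 ± 0.62) and Hoxc13 (3.94 ± 0.41) were higher, and Foxn1, the factor mutated in nude mice, was lower (-1.78 ± 0.40). No gene of these lists passed in aHFSC against tHFSC.

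Lgr6, the R-spondin receptor of the isthmus, was the upper follicle marker nearest to a call between the kinds of cell. In tHFSC it was 2.25 in young control, 1.28 in Col17a1 cKO, 1.87 in aPKC cKO, 1.90 in young hCOL17A1, 0.24 in aged WT and 2.32 in aged hCOL17A1. In aHFSC the same conditions gave 2.42, 2.55, 3.15, 2.27, 2.11 and 2.52. In IFE it was 1.28 in young WT, 0.42 in young hCOL17A1, 1.25 in aged WT and 1.59 in aged hCOL17A1. All aHFSC arrays lay above all IFE arrays, which held for 4 of the 9 members and for 6.52% of all genes in either direction. The difference of aHFSC from IFE was 1.30 ± 0.33 (adjusted p = 0.0706, limma) and passed in 1 of 28 alternatives, normexp background correction (1.20, adjusted p = 0.0406). That of tHFSC was 0.44 ± 0.33. The second Lgr6 probe gave 0.57 ± 0.59 in aHFSC against IFE (adjusted p = 0.702), and its aHFSC and IFE arrays overlapped.

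The receptors and ligands around LGR5 and LGR6 did not move as 1 group. Of 11 tested genes, Lgr4, the third receptor of the family, was higher in tHFSC by 3.00 ± 0.42 (adjusted p = 0.00533) and in aHFSC by 3.30 ± 0.42 (adjusted p = 0.00378). Rspo3, an R-spondin ligand, was lower in both (-3.07 ± 0.44 and -4.07 ± 0.44), and so was Axin2, a target of Wnt signalling (-2.04 ± 0.30 and -2.33 ± 0.30). The list's median was -0.48 in tHFSC and -0.29 in aHFSC. Between the HFSC states 1 of the 11 passed: Tcf7, a Wnt-responsive factor, was higher in aHFSC than in tHFSC by 1.36 ± 0.23 (adjusted p = 0.0485).

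Lrig1 encodes a membrane protein that restrains ErbB receptors and marks the junctional zone. On its brightest probe it was 2.68 in young control tHFSC, 2.23 in Col17a1 cKO, 2.52 in aPKC cKO, 2.43 in young hCOL17A1, 1.34 in aged WT and 2.34 in aged hCOL17A1. The aHFSC of these conditions gave 3.41, 3.19, 3.42, 2.34, 4.05 and 4.02. In IFE it was 2.49 in young WT, 2.37 in aged WT, 2.0 in aged hCOL17A1 and 5.05 in young hCOL17A1, the highest value of all 16 arrays. The difference from IFE was -0.73 ± 0.50 in tHFSC and 0.42 ± 0.50 in aHFSC. Without the young hCOL17A1 IFE array it was 0.00 ± 0.49 and 1.15 ± 0.49.

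What this Lrig1 probe reads is uncertain. The gene row most like it was Slc25a26, a mitochondrial carrier, with r = 0.977. Its gene lies on the opposite strand, and its span shares 131 bases with that of Lrig1 in RefSeq. The Lrig1 probe covers chr6:94554523-94554582 (mm9, minus strand), and the Slc25a26 probe covers chr6:94554505-94554564 (mm9, plus strand). They share 42 bases, as reverse complements. A stretch of 30 of these bases is shown, 5′ to 3′ as each probe reads it, with AATAAA, the letters of a polyadenylation signal, and its reverse complement in capitals.
Lrig1 probe: taaagtgtctttAATAAAggttcatttata
Slc25a26 probe: tataaatgaaccTTTATTaaagacacttta
The labels do not state the strand of the labelled cDNA, so whether the 2 probes caught 1 transcript or both was not tested. Another Slc25a26 probe, outside the shared bases, had r = 0.334 with this Lrig1 probe and 0.257 with the overlapping Slc25a26 probe. The other Lrig1 probe, at chr6:94554811-94554870 (mm9), lies outside the shared bases and had r = 0.386 with the first Lrig1 probe. On the young hCOL17A1 IFE array it was the lowest of the 4 IFE arrays, at -1.14 against 0.19 to 0.46. On this probe the difference from IFE was -0.08 ± 0.53 in tHFSC and 1.56 ± 0.53 in aHFSC (adjusted p = 0.185).

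**Figure D3:**
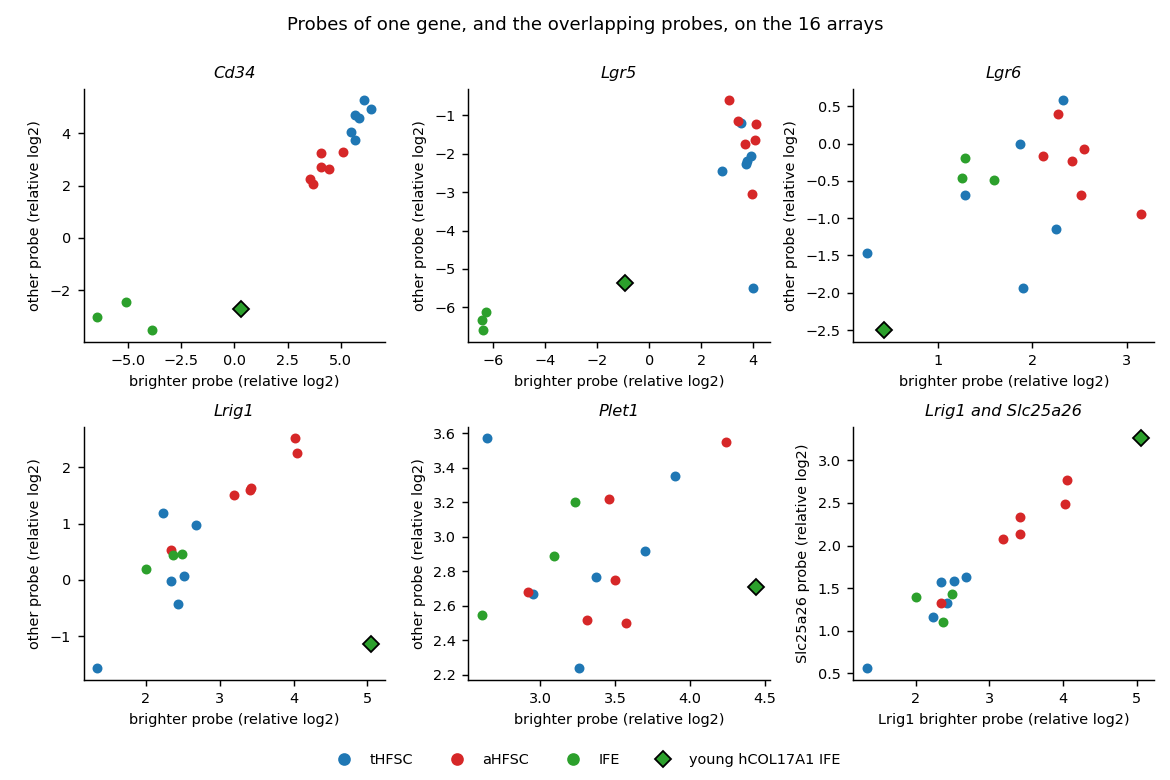
Relative log2 signal of the brighter probe (x axis) against the other probe (y axis) of 5 members, and of the Lrig1 against the overlapping Slc25a26 probe, with 1 point for each of 16 arrays; the diamond is young hCOL17A1 IFE. The Lrig1 and Slc25a26 probes lie on a line (r = 0.977), while the diamond lies off the other points for Lrig1, at 5.05 on one probe and -1.14 on the other.

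The young hCOL17A1 IFE array was unlike the other IFE arrays on several probes, and 2 probes of a gene often disagreed there. Its Cd34 level was 0.31 on the brighter probe but -2.74 on the second, within the -3.53 to -2.46 of the other IFE arrays. Its Plet1 level was 4.44 on the brighter probe, the highest of 16, and 2.71 on the second, where the other IFE arrays had 2.55 to 3.20. For Lgr6 it was lowest of the IFE arrays on both probes, at 0.42 against 1.25 to 1.59 on the brighter and at -2.50, the lowest of 16 arrays, against -0.49 to -0.20 on the second.

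Of 12 listed genes around LRIG1 and the ErbB receptors, relatives and ligands among them, 0 passed as higher in HFSC. Of all genes 2.1% did in tHFSC and 1.62% in aHFSC. As lower, 2 of the 12 passed in each comparison, where 4.23% and 2.62% of all genes did. Epgn, an ErbB ligand of the epidermis, differed by -4.72 ± 0.77 in tHFSC (adjusted p = 0.00988) and -4.52 ± 0.77 in aHFSC (adjusted p = 0.015). Hbegf, another ligand, was lower in tHFSC (-3.83 ± 0.82), and Erbb3, a receptor, in aHFSC (-1.99 ± 0.41). The list had medians of -0.57 and -0.22.

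Plet1, a surface protein of the junctional zone and upper isthmus, ran from 2.64 to 3.90 in tHFSC (median 3.32), from 2.92 to 4.24 in aHFSC (median 3.48) and from 2.61 to 4.44 in IFE (median 3.16). The 3 kinds of cell overlapped throughout. The difference from IFE was -0.17 ± 0.36 in tHFSC and 0.02 ± 0.36 in aHFSC. The second probe gave 0.09 ± 0.26 and 0.04 ± 0.26, so both probes placed the difference near 0, while their r over the arrays was 0.192.

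Prdm1 encodes BLIMP1, a repressor found in the sebaceous duct and in differentiating keratinocytes. Its level ran from 2.63 to 3.56 in tHFSC (median 3.08), from 2.46 to 3.26 in aHFSC (median 3.17) and from 2.11 to 3.02 in IFE (median 2.69). It varied least of the members within HFSC of either state except Gata6 in aHFSC. The difference from IFE was 0.45 ± 0.24 in tHFSC and 0.37 ± 0.24 in aHFSC.

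Gata6, a transcription factor of the sebaceous duct lineage, ran from -2.12 to 1.35 in tHFSC (median -1.14), from -0.99 to -0.22 in aHFSC (median -0.70) and from -1.69 to -0.55 in IFE (median -1.10). The differences from IFE were -0.06 ± 0.42 and 0.09 ± 0.42. Cst6, a cysteine protease inhibitor of the infundibulum and of cornifying cells, ran from 1.51 to 4.70 in tHFSC (median 2.94), from 0.88 to 3.81 in aHFSC (median 2.99) and from 1.28 to 3.06 in IFE (median 1.66). Its differences from IFE were 0.47 ± 0.28 and 0.10 ± 0.28, which average over pairs that differed by age. In aHFSC the pairs were 1.54 (young WT) and 0.56 (young hCOL17A1), across slides. Within slide 2 they were -0.21 (aged WT) and -0.98 (aged hCOL17A1). In tHFSC the same pairs were 1.35, 0.01, 0.36 and -0.35. Cst6 varied more over the HFSC conditions (SD 1.23 in tHFSC and 1.27 in aHFSC, n = 6) than over IFE (SD 0.80, n = 4). Gata6 varied more than in IFE (SD 0.48) in tHFSC (SD 1.20) but not in aHFSC (SD 0.29), and its tHFSC spread rested on the aPKC cKO array, since the 4 matched tHFSC arrays had an SD of 0.47.

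Other genes of the upper follicle gave few calls. Among 7 genes of the infundibulum and junctional zone, 1 passed as higher than in IFE in tHFSC and 2 in aHFSC, where 2.1% and 1.62% of all genes did. Krt17, a keratin of the follicle's outer sheath, passed in both. It was higher by 2.02 ± 0.23 in tHFSC (adjusted p = 0.00213, limma) and by 2.41 ± 0.23 in aHFSC (adjusted p = 0.000971). The list's medians were 0.32 and 0.71. Of 11 sebaceous gland genes 0 passed in either comparison. The epidermal list went the other way, with 7 of 8 passing as lower in each comparison. Of all genes 4.23% passed as lower in tHFSC and 2.62% in aHFSC. The difference of tHFSC from IFE was -5.04 ± 0.55 for Krt1, a keratin of differentiating epidermis, and -3.20 ± 0.44 for Dsg1a, a desmosomal cadherin.

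Markers of other cells were read beside the bulge markers. The summed linear level of 4 tested endothelial markers, cells that also carry CD34, was 5.33 to 6.30 in tHFSC, 4.62 to 6.14 in aHFSC and 4.09 to 6.08 in IFE, with Cdh5, Tie1 and Emcn below the filter. Summed levels of 5 tested fibroblast markers were 3.65 to 11.2, 1.54 to 4.65 and 13.4 to 27.9. Those of 7 T cell markers were 2.33 to 8.12, 1.28 to 7.58 and 16.4 to 29.0. Both sums were highest in IFE, where the bulge markers were lowest. Thy1, which is in both lists, made up most of both sums in IFE (log2 level 3.67 to 4.78 there). It was lower than in IFE in tHFSC (-4.92 ± 0.83) and in aHFSC (-4.78 ± 0.83). Of the 7 T cell markers it alone passed. Differences were below 0 for 5 of the 7 in tHFSC (median -0.43) and for 6 in aHFSC (median -0.93). The other 4 fibroblast markers had differences above 0 in both, as the bulge markers did, and Col1a2, a collagen chain, passed (4.41 ± 0.29 in tHFSC and 2.21 ± 0.29 in aHFSC). The list's medians were 0.84 and 0.33. The part of these cells in the bulge marker differences was not tested.

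Between the 2 HFSC states none of the 9 members passed in the 16-array limma fit, where 0.526% of all genes did. Cd200, Lgr6 and Lrig1 had an unadjusted p under 0.05. Cd34 was lower in aHFSC in 6 of 6 conditions, with differences of -1.66 in young control, -1.41 in Col17a1 cKO, -1.58 in aPKC cKO, -2.13 in young hCOL17A1, -2.72 in aged WT and -0.74 in aged hCOL17A1. The highest aHFSC array, at 5.10, lay below the lowest tHFSC array, at 5.48. Such a separation held for 1 of 9 members and for 1.66% of all genes. The difference was -1.71 ± 0.82 (adjusted p = 0.445), with an error that includes the spread of Cd34 over the IFE arrays. A fit of the 12 HFSC arrays alone gave -1.71 ± 0.24 (adjusted p = 0.0427, limma; 0.627% of genes called). Cd34 passed in 7 of 28 alternatives, with a range of -1.90 to -1.50. The second probe gave -1.84 ± 0.33 (adjusted p = 0.0678). The summed level of the fibroblast markers was also lower in aHFSC in 6 of 6 conditions, by the least in aPKC cKO (3.65 in tHFSC and 2.22 in aHFSC). Of those 5 markers Col1a2 passed, at -2.20 ± 0.24 (adjusted p = 0.0338), and their part in the Cd34 difference was not tested.

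Cd200 was lower in aHFSC in 5 of 6 conditions (-1.40 to -0.42) and differed by 0.07 in aged hCOL17A1. The difference was -0.79 ± 0.23 (adjusted p = 0.206). Lgr5 differed by 0.10 ± 0.56, with an error that includes its spread over the IFE arrays. A fit of the HFSC arrays alone gave 0.10 ± 0.14. On this brighter probe Lgr5 was higher in 5 of 6 conditions by 0.31 at most. Its second probe differed by 1.04 ± 0.60 (adjusted p = 0.543, limma), with aged hCOL17A1 at -5.5 in tHFSC, not well above background, and -1.22 in aHFSC. The bulge markers therefore did not share a direction between the states. Because these are bulk samples, fewer cells with a transcript and less of it per cell cannot be told apart.

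On its brighter probe Lgr6 was higher in aHFSC in 6 of 6 conditions, by 0.17 to 1.87, and the difference was 0.86 ± 0.28 (adjusted p = 0.254, limma). The second Lgr6 probe gave 0.49 ± 0.50 (adjusted p = 0.741). It was lower in aHFSC in aPKC cKO (-0.95 against 0 in tHFSC) and in aged hCOL17A1 (-0.69 against 0.58). Lrig1 was higher in 5 of 6 conditions, with a difference of 1.15 ± 0.43 (adjusted p = 0.318) on the probe that overlaps Slc25a26 and 1.63 ± 0.45 (adjusted p = 0.196) on the other. For the brighter probes of both genes the aged WT pair had the largest gap, 1.87 for Lgr6 and 2.71 for Lrig1. There, aged WT tHFSC held the lowest HFSC value of both, and aged WT aHFSC the highest HFSC value of Lrig1 (4.05). These probes of Lgr6 and Lrig1 had r = 0.73 over the 12 HFSC arrays. On the second Lgr6 probe the lowest HFSC value was that of young hCOL17A1 tHFSC (-1.94, against 0.39 in its aHFSC), and aged WT had -1.47 and -0.16. Plet1 (0.19 ± 0.31), Gata6 (0.15 ± 0.36), Cst6 (-0.36 ± 0.24) and Prdm1 (-0.07 ± 0.20) had no common sign in the pairs. On the brightest probes none of the 9 members had an unadjusted p under 0.05 for a different aHFSC-minus-tHFSC gap in aged and young mice, and 0 passed (limma; 0% of all genes). The other Lrig1 probe had a wider gap in aged mice by 2.30 ± 0.60 (unadjusted p = 0.00538, adjusted p = 0.619 in limma).

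The knockouts address what the loss of COL17A1, the hemidesmosomal collagen, or of aPKC, a polarity kinase, does to these cells. In Col17a1 cKO against control HFSC, 0 of 9 members passed (limma; 0% of all genes) and 0 had an unadjusted p under 0.05, with differences from -0.48 to 0.50. In aPKC cKO against control, 0 passed (0% of all genes), and Gata6 and Cst6 had an unadjusted p under 0.05. Gata6 was 1.35 in aPKC cKO tHFSC, the highest of 16 arrays, against -1.23 in control, and -0.22 in aPKC cKO aHFSC against -0.54. Cst6 was 4.70 and 3.81 in aPKC cKO against 2.81 and 3.00 in control. The differences were 1.45 ± 0.63 for Gata6 and 1.35 ± 0.42 for Cst6 (adjusted p = 1 for both). The control tHFSC value of Gata6 is the one taken from the value table, and plucking is given for control aHFSC and not for aPKC cKO aHFSC.

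Gata6 and Cst6 had r = 0.93 over the 8 young HFSC arrays and 0.77 over 6 of them without aPKC cKO, which are too few arrays for more than a description. The 4 aged arrays went the other way: Gata6 was -2.12 (WT) and -1.50 (hCOL17A1) in the tHFSC, which were higher in Cst6, and -0.81 and -0.94 in the aHFSC. The rows most like Gata6 over 16 arrays were Fam83a, Gm8350 and Pglyrp3 (r 0.777 to 0.734), and those most like Cst6 were Spsb1, Hormad1 and Prh1 (0.887 to 0.855). For Prdm1 they were Nrxn3, Lemd1 and Tcp11l2 (0.949 to 0.929), and for Plet1 Snapc2, Cds2 and Nsmce4a (0.843 to 0.834). Nono and Tnks2 followed Slc25a26 for Lrig1 (0.948 and 0.897).

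**Figure D4:**
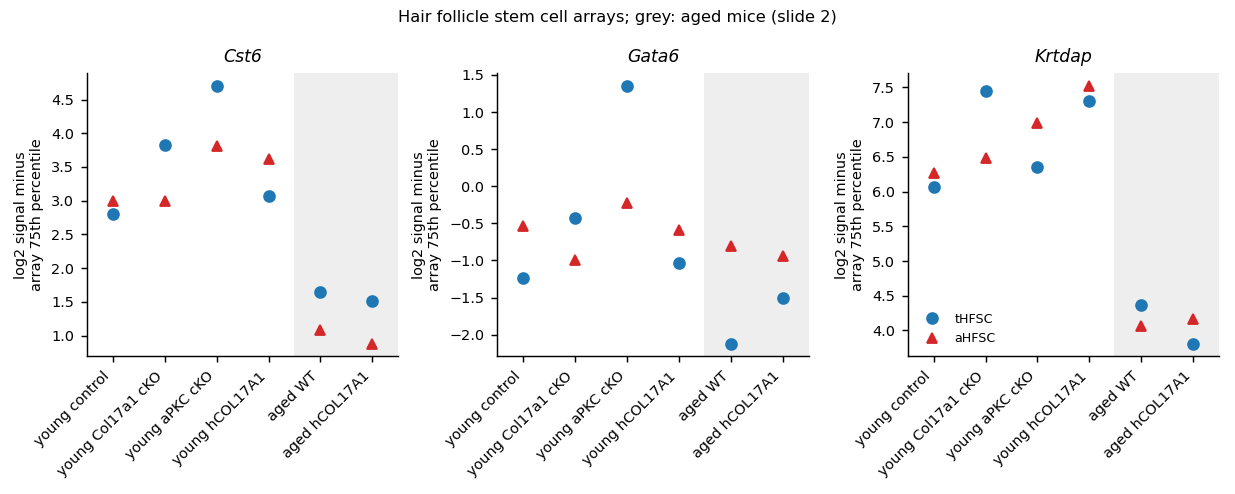
Log2 signal minus the array's 75th percentile (y axis) of Cst6, Gata6 and the epidermal gene Krtdap in the 6 HFSC conditions (x axis), with circles for tHFSC and triangles for aHFSC; the grey area marks the aged mice on slide 2. Cst6 lies at 0.88 to 1.65 in aged and 2.81 to 4.70 in young mice, and Krtdap at 3.81 to 4.37 and 6.07 to 7.52.

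Cst6 separated aged from young HFSC. The 4 aged arrays were 1.65 (WT tHFSC), 1.08 (WT aHFSC), 1.51 (hCOL17A1 tHFSC) and 0.88 (hCOL17A1 aHFSC), and the 8 young arrays ran from 2.81 to 4.70 with a median of 3.34. All aged arrays lay below all young ones, which held for 1 of 9 members and for 1.89% of all genes in either direction. Against only the 4 young control and hCOL17A1 arrays, 2 of 9 members did not overlap, where 5.31% of all genes did not. Those were Cst6 and Lgr5, which was 3.72 to 4.11 in aged and 2.79 to 3.70 in young arrays. On the second Lgr5 probe the same arrays overlapped, at -5.5 to -1.22 in aged and -2.45 to -0.61 in young. The aged hCOL17A1 tHFSC array, at -5.5, was not well above background there. For Cst6 the difference was -1.54 ± 0.42 in aged WT against young control (adjusted p = 0.944, limma), where 0% of genes were called. In aged hCOL17A1 against young hCOL17A1 the Cst6 difference was -2.15 ± 0.42 (adjusted p = 0.0699, limma), where 0.466% of genes were called. Neither passed. The slide differs with age here, and RU486 differs too in the first comparison. So does plucking there, which is given for young control aHFSC and not for aged WT aHFSC.

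Epidermal genes moved with Cst6. Krtdap, a gene of differentiating keratinocytes, was 3.81 to 4.37 in aged and 6.07 to 7.52 in young HFSC, and Krt10, a keratin of the same layers, 1.72 to 3.02 and 3.41 to 5.92. Ly6a, against which HFSC were gated, was -4.87 to -3.43 and -3.50 to 1.02. Of the 8 epidermal genes, 7 had differences below 0 in aged against young hCOL17A1 HFSC (median -3.53). Of these 4 passed as lower (limma), where 0.31% of all genes did. In aged WT against young control 6 were below 0 (median -1.26), and 0 passed, where 0% of all genes did. Cst6 and Krtdap had r = 0.87 over the 12 HFSC arrays but 0.21 over the 8 young ones. The part of these genes in the Cst6 difference was not tested, and they are named here after their values were seen. In IFE itself Cst6 was 1.46 in young WT and 1.28 in aged WT, and 3.06 in young hCOL17A1 and 1.86 in aged hCOL17A1.

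None of the 9 members passed by age or transgene in HFSC (limma). In aged WT against young control HFSC, Lgr6 (-1.16 ± 0.49) and Cst6 had an unadjusted p under 0.05. The Lgr6 difference came from the tHFSC pair (-2.01) more than the aHFSC pair (-0.31), and it was -0.12 ± 0.87 on the second Lgr6 probe. In aged hCOL17A1 against aged WT HFSC (0% of genes called), Cd200 (1.20 ± 0.41) and Lgr6 (1.25 ± 0.49) were higher in both pairs with adjusted p of 0.328 and 0.376 (limma). The second Lgr6 probe gave 0.76 ± 0.87, and its aHFSC pair went the other way (-0.69 in hCOL17A1 and -0.16 in WT). In aged against young hCOL17A1 HFSC, Cd200 was higher by 1.04 ± 0.41 (adjusted p = 0.234, limma). Lgr5 differed by 1.13 ± 0.97 (adjusted p = 0.546, limma), with 1.22 in the tHFSC and 1.04 in the aHFSC pair. The errors of Lgr5 and Cd34 in these HFSC comparisons include their spread over the IFE arrays. The second Lgr5 probe had the other sign, at -1.83 ± 1.04 (adjusted p = 0.392). In young hCOL17A1 against young control HFSC (0% of genes called), 0 members had an unadjusted p under 0.05. The 3 bulge markers were lower in both pairs on their brightest probes (-0.89 to -0.40). On the second Lgr5 probe the aHFSC pair went the other way (-0.61 in hCOL17A1 and -1.76 in control). Treatment differs here too, since RU486 is given for control alone and plucking for control aHFSC alone, and cannot be told apart from the transgene.

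In IFE, neither age nor the transgene gave a call among the 9 members or among all genes (0% in both, limma). Lgr5 had an unadjusted p under 0.05 for age (-2.66 ± 0.97), and Lgr5 (2.81 ± 0.97), Cd200 (1.17 ± 0.41) and Cst6 (1.09 ± 0.42) for the transgene. Cd34 and Lgr5 followed the single young hCOL17A1 array: from WT to hCOL17A1, Lgr5 was higher by 5.53 in young and by 0.09 in aged IFE. Cd34 differed by 6.76 in young and by -1.22 in aged IFE.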

How the data were processed

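Gene expression of sorted mouse skin cells was measured on 16 one-colour Agilent arrays (Cy3), 1 for each of 16 groups. The deposited scanner files hold, per the file headers, background-subtracted and detrended processed signals, an intensity on a linear scale made with Feature Extraction, on a design of the mm9 build. A deposited value table holds log2 values of the same arrays and matches the log2 processed signal centred on each array's 75th percentile. The young control tHFSC file holds 46417 of 55681 probes, and the other 9264 were filled from the value table. cDNA was amplified with a whole-transcriptome kit, per the labels' protocols.

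Outlier spots were left out, spots of a probe were averaged, and each array was centred on its 75th percentile. Probes well above background on at least 2 of 16 arrays were kept (49833), with the brightest probe for each gene name (31571 genes). No spot was saturated, and the number of arrays limits the precision.

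Because each group has 1 array, 12 comparisons were tested in a limma 3.58.1 fit (R 4.3.3; lmFit, eBayes with trend, two-sided) with 6 HFSC condition terms, 1 shared shift from tHFSC to aHFSC, and intercept, age and transgene in IFE (6 residual degrees of freedom; 5 with a state-by-age term). P-values measure scatter around this additive fit, not variation between animals. The fit was tested on simulated data. HFSC were compared with the IFE of the same age and genotype, with young control taken as young WT.

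Named genes are the 9 members, the sort genes, up to 3 genes of each fixed list past the threshold in each direction, those of smallest unadjusted p in the 3 comparisons between cells, and the 3 genes most correlated with each member; exceptions are stated. The members and lists were chosen with earlier results of these data known. Alternatives were background correction, normalization, filters, probe averaging, arrays left out, the slide and the deposited table. The promoter windows and motifs were chosen after the values were seen. Some results are not reported here.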

Additional observations from a re-analysis of the deposited data

How the results depend on the processing

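The comparison of aHFSC with tHFSC is paired by condition through the condition terms of the fit, and the labels give no replicate numbers for a further block. Members called in tHFSC against IFE ranged from 2 to 3 and in aHFSC against IFE from 2 to 4 over 28 alternatives. Cd34 and Cd200 passed in all 28 in both comparisons. Lgr5 passed in 26 of the 27 that tested it in tHFSC, and normexp correction, limited to probes held in all files, used its other probe and gave 0.64 (adjusted p = 0.163; 3.1e-06 to 0.163 over the alternatives). In aHFSC against tHFSC, 0 members passed as reported and 1, Cd34, passed with only the arrays of the comparison (adjusted p = 0.0427), after a filter to probes above background on every array (0.0398, on the second probe) and without aged hCOL17A1 aHFSC and young hCOL17A1 IFE (0.0463). Leaving out 1 array gave 0 to 1 members there, with Cd34 called without young WT IFE (0.0456), young hCOL17A1 IFE (0.0459), aged WT IFE (0.0458) or aged hCOL17A1 IFE (0.0461). Leaving out 1 array gave 0 to 2 members for age in IFE and 0 to 2 for the transgene in IFE. These were Cd34 and Lgr5, called for age without young WT IFE or aged WT IFE (-5.40 and -5.38) and for the transgene without aged WT IFE or aged hCOL17A1 IFE (6.76 and 5.53), where 1 array each remains on a side and its spread is taken from the other arrays. These Cd34 and Lgr5 values are from their brighter probes. For the other 7 comparisons 0 members passed in any of 26 alternatives. Lrig1 in aHFSC against IFE passed in the fit within slide 2 (1.85, adjusted p = 0.0162). With slide as a block, Cst6 in aHFSC against IFE was -0.94 (adjusted p = 0.498) against 0.10 without it. Lgr5 in 3 IFE arrays and Cd34 in 2 were not well above background, which limits their differences.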
